A study of Mus musculus with 9 samples.

Results

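The Fos and Jun families of transcription factor genes were read in RNA of sorted nucleus accumbens cells from mice that had or had not taken cocaine. The family was taken as the 7 genes Fos, Fosb, Fosl1, Fosl2, Jun, Junb and Jund, found by gene symbol among the 52636 Ensembl genes of the count table, and all 7 were present in all 9 libraries. Their products are basic leucine zipper proteins. A Jun protein pairs with a Fos protein, or with another Jun protein, and the pair is the factor AP-1, which binds DNA at AP-1 sites and related cyclic AMP response elements. Fos, Fosb, Jun and Junb are immediate early genes, whose mRNA climbs soon after a neuron or glial cell is stimulated and then decays. In the accumbens, the FosB gene is best known for ΔFosB, a stable truncated protein that builds up with repeated cocaine in medium spiny neurons. Gene-level counts do not separate the mRNA of ΔFosB from that of full-length FosB.

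All libraries came from male C57BL/6 mice, and no age was given in the sources used here. The naive group (3 libraries) had no cocaine. The RES group (3 libraries) and the SUS group (3 libraries) took cocaine by nosepoke, first on a fixed ratio schedule with at most 40 infusions, later at 1.2 mg/kg per infusion in 10 daily progressive ratio sessions of 23 h, where each further infusion costs more responses. The number of responses for the last infusion (the breakpoint) was the behavioural readout. In all groups, tissue was taken from anaesthetised, perfused animals, for the cocaine groups on day 3 after the last session, so the libraries hold no early time after a session. Tissue punches were pooled over 2 to 3 mice, incubated with papain for 45 min at 37 degrees C, stained with a fluorescent antibody against choline acetyltransferase and sorted. Expression in the animal and expression during these steps cannot be told apart in these libraries, and any change during the steps was not tested. RES and SUS are names from the sample titles, and the naive libraries are titled WT, a label that the titles of the cocaine libraries do not carry. The phenotype field calls the RES libraries susceptible and the SUS libraries resilient, the titles read the other way, and no behavioural direction is read from either name here.

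Total counts ran from 4471675 to 11155730 per library, and the 7 genes together took 0.0192% to 0.168% of them. SUS replicate 3 stood apart: its Spearman correlations with the other 8 libraries, across genes, were 0.904 to 0.931, against 0.942 to 0.973 for all other pairs, so differences, spreads and list medians that involve it are also given without it. Markers of the labelled cell type were near background, which was set as the counts per exonic kb of 1092 olfactory receptor genes in the same library. None of 8 cholinergic interneuron markers averaged above 3 times background over the 9 libraries. Chat, which encodes choline acetyltransferase, was at 0.877 to 2.496 times background in 8 libraries and at 7.87 in SUS replicate 2. Whether replicates of a group were separate pools of mice is not stated in the labels, and p-values therefore measure only how these libraries vary, which may be technical. In these bulk libraries, fewer cells of a type and less RNA per cell cannot be told apart.

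The stretches upstream of the start sites are shown for the 4 immediate early members, since these are the family's classical stimulus-driven genes. Each is the 250 bases before the RefSeq start on GRCm38.p6, read 5′ to 3′ on the gene's strand, and capitals mark the motif matches found in it. RefSeq promoter entries matched 6 of the 7 genes. Fos is on the plus strand at chr12:85473640-85473889, Fosb on the minus strand at chr7:19310046-19310295, Jun on the minus strand at chr4:95052223-95052472 and Junb on the minus strand at chr8:84978749-84978998.
Fos: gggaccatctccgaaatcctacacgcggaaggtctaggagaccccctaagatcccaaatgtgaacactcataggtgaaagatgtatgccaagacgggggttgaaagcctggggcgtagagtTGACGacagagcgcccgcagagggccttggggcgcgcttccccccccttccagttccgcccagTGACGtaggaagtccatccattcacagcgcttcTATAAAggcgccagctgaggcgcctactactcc
Fosb: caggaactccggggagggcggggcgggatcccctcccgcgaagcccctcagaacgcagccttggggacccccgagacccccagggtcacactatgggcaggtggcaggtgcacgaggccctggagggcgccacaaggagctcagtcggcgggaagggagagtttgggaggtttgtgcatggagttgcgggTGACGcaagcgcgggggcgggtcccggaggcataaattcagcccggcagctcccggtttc
Jun: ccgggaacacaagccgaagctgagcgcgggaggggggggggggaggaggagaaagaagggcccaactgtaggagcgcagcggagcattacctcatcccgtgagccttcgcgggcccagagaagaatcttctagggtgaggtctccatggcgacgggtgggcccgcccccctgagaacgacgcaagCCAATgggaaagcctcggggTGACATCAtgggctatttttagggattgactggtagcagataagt
Junb: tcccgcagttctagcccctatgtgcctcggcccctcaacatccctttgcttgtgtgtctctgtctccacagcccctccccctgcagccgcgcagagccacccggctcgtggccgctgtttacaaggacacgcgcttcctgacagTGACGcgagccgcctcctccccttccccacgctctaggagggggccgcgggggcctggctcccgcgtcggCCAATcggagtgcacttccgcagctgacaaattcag
The Fos stretch held TGACG, the shared core of a cyclic AMP response element, with its first base at positions -129 and -66 from the start, and TATAAA, the TATA box, at -33. The Fosb stretch held TGACG at -60. The Junb stretch held TGACG at -106 and CCAAT at -36. The Jun stretch held CCAAT at -65 and TGACATCA at -45, the cyclic AMP response element-like sequence known from the Jun promoter. TGACG was present, on either strand, in 17.8% of the 250-base stretches of 32851 promoters, TATAAA in 12.4%, CCAAT in 33.9% and TGACATCA in 2.93%. The full element TGACGTCA (1.55% of promoters, and itself a match to TGACG), the AP-1 site TGANTCA (6.75%) and the CArG box bound by serum response factor (1.47%) had no match in these 4 windows. Bases farther upstream than these 250 were not searched, so a missing match does not mean that the gene lacks the site. These matches describe letters and show no binding.

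Levels per exonic kb, each divided by the background of its own library, put Jun first. Jun (ENSMUSG00000052684, a single exon at chr4:95049034-95052222) averaged 35.1 times background (SD 33.4, n = 9 libraries; 3.91 to 97.3). Junb (ENSMUSG00000052837, chr8:84974484-84978718), a Jun protein with weaker activation on many sites, averaged 21.1 times background (SD 19.6; 2.69 to 61.2). Fos (ENSMUSG00000021250, chr12:85473890-85477273), the classical partner of Jun, averaged 16.96 times background (SD 14.1; 3.26 to 43.2). The lowest value of each of these 3 genes was in RES replicate 3.

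The other 4 genes were closer to background. Fosb (ENSMUSG00000003545, chr7:19302696-19310051) averaged 5.61 times background (SD 5.39; 1.79 to 18.2). Jund (ENSMUSG00000071076, a single exon at chr8:70698949-70700616), the Jun protein known for steady expression, averaged 3.45 times background (SD 3.21; 0.680 to 10.7). Its lowest library, RES replicate 3, was thus below the olfactory receptor level. Fosl2 (ENSMUSG00000029135, chr5:32135801-32157842), which encodes Fra-2, averaged 3.20 times background (SD 1.03; 1.52 to 4.63). Fosl1 (ENSMUSG00000024912, chr19:5447547-5455946), which encodes Fra-1, averaged 2.08 times background (SD 0.587; 1.03 to 2.66). Jund and Fosl1 were counted thinly, at 20 to 333 and 32 to 115 counts per library, so their values carry the largest counting error of the family.

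**Figure D1:**
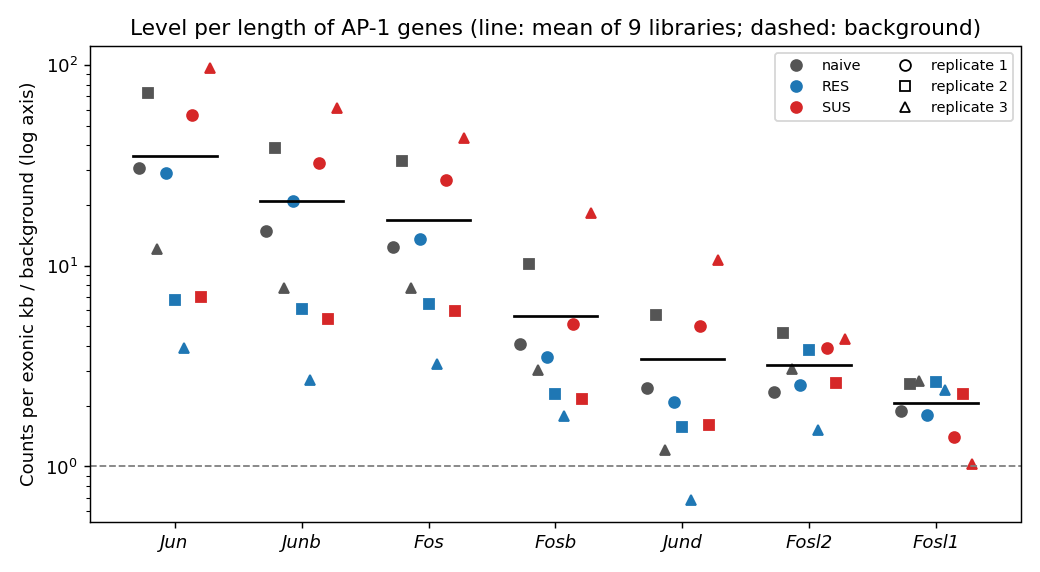
Counts per exonic kb of each AP-1 gene divided by the olfactory receptor background of the same library (log axis), in 9 libraries coloured by group and shaped by replicate number. Black lines are means over the 9 libraries (n = 9) and the dashed line is background, and Jun, Junb and Fos lie above the other 4 genes on average while SUS replicate 3 tops every gene but Fosl2 and Fosl1.

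The order was tested within libraries, by an exact two-sided sign-flip permutation test of the log2 ratio of each pair of genes over the 9 libraries. Of 21 pairs, 15 differed at an adjusted p under 0.05, each with an adjusted p of 0.00547, from 0.00391, the smallest p the exact test can give. Jun was above Junb in 9 of 9 libraries, by a mean log2 ratio of 0.62 (SD 0.28), and above Fos in 9 of 9, by 0.78 on the log2 scale. With the longest transcript as length, Jun was above Junb in 8 of 9 by 0.28 (adjusted p = 0.0273, exact test). Fos was then above Jun in 1 of 9 (mean log2 ratio of Fos over Jun -0.62, adjusted p = 0.0145, exact test). Fos was above Fosb in 9 of 9 libraries by 1.56 on the log2 scale (SD 0.43), and Fosb above Jund in 9 of 9 by 0.74. Junb and Fos, neighbours in the order, did not differ beyond their spread (adjusted p = 0.181, exact test), but Junb was above Fos with the longest transcript as length (adjusted p = 0.0145) and with unshared bases (0.0483). The same was true among the 3 lowest genes, with adjusted p of 0.381 for Fosl2 and Jund, 0.602 for Fosl1 and Jund and 0.0513 for Fosl1 and Fosl2 in the exact test. Fosb did not pass against Fosl1 (adjusted p = 0.0676, exact test) or Fosl2 (adjusted p = 0.155, exact test). With the longest transcript as length, Fosl2 passed against Jund (adjusted p = 0.0302, exact test) and Fosl1 (0.0109), and Fosb against Fosl1 (0.00586), the first of each pair being higher.

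Exon overlap limits the lower end of this order. Jund shares 877 of its 1668 exonic bases with Gm11175 on the other strand, and Fosl1 shares 1163 of 2033 with Ccdc85b. The strand setting of the counting is not given in the sources used here. Gm11175 had 0 counts in all 9 libraries, and Ccdc85b had 33 to 148. When counts were divided by unshared bases only, Jund averaged 7.28 times background, Fosl1 4.86, Fosb 5.61 and Fosl2 3.20, so Jund came before Fosb and Fosl1 before Fosl2. The Fosb and Jund pair turned around and still passed (mean log2 ratio of Fosb over Jund -0.33, Fosb higher in 2 of 9 libraries, adjusted p = 0.0483, exact test). Jund also passed above Fosl2 there (log2 ratio of Fosl2 over Jund -0.79, Fosl2 higher in 3 of 9, adjusted p = 0.0483, exact test). Jun, Junb and Fos kept places 1 to 3 there. Levels of Jund and Fosl1 are therefore uncertain relative to the other genes, and comparisons of the same gene between libraries do not use the length.

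Between libraries, the Jun genes covered a wide range that did not follow the groups. Values are counts scaled to the library total (CPM) and adjusted by the trimmed mean of M values. Jun had 214, 429 and 76.2 CPM in naive replicates 1, 2 and 3, 205, 36.9 and 28.6 CPM in RES replicates 1, 2 and 3, and 349, 44.3 and 700.3 CPM in SUS replicates 1, 2 and 3. Every group held a library above 200 CPM and a library below 80 CPM, so all 3 groups overlapped. Junb had 74.4, 163 and 35.1 CPM in the naive libraries, 106, 24.1 and 14.2 CPM in the RES libraries and 145, 24.7 and 318 CPM in the SUS libraries, in replicate order. The high and low libraries of Junb were those of Jun. Jund had 8.94, 17.5 and 3.98 CPM in the naive libraries, 7.71, 4.51 and 2.60 CPM in the RES libraries and 16.4, 5.32 and 40.3 CPM in the SUS libraries. Jund again peaked in SUS replicate 3 and was lowest in RES replicate 3, and its groups overlapped.

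In the Fos family, Fos and Fosb had this pattern and Fosl1 and Fosl2 varied less. Fos had 63.5, 144 and 35.7 CPM in the naive libraries, 70.8, 26.0 and 17.6 CPM in the RES libraries and 122, 27.7 and 229 CPM in the SUS libraries. SUS replicate 3, naive replicate 2 and SUS replicate 1 were the highest, and the groups overlapped. Fosb had 55.3, 118 and 37.1 CPM in the naive libraries, 48.4, 24.7 and 25.6 CPM in the RES libraries and 62.6, 26.9 and 257 CPM in the SUS libraries. The SUS replicate 3 value of Fosb stood well above all others, while the other 2 SUS libraries were within the range of the naive group or below it. Fosl2 had 49.6, 82.5 and 58.5 CPM in the naive libraries, 54.5, 63.6 and 33.8 CPM in the RES libraries and 73.8, 50.1 and 94.5 CPM in the SUS libraries. Its range was narrow, again from RES replicate 3 to SUS replicate 3. Fosl1 had 8.40, 9.67 and 10.6 CPM in the naive libraries, 8.06, 9.24 and 11.2 CPM in the RES libraries and 5.52, 9.31 and 4.72 CPM in the SUS libraries. For Fosl1 alone among the 7 genes, SUS replicate 3 was the lowest library and RES replicate 3 the highest.

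**Figure D2:**
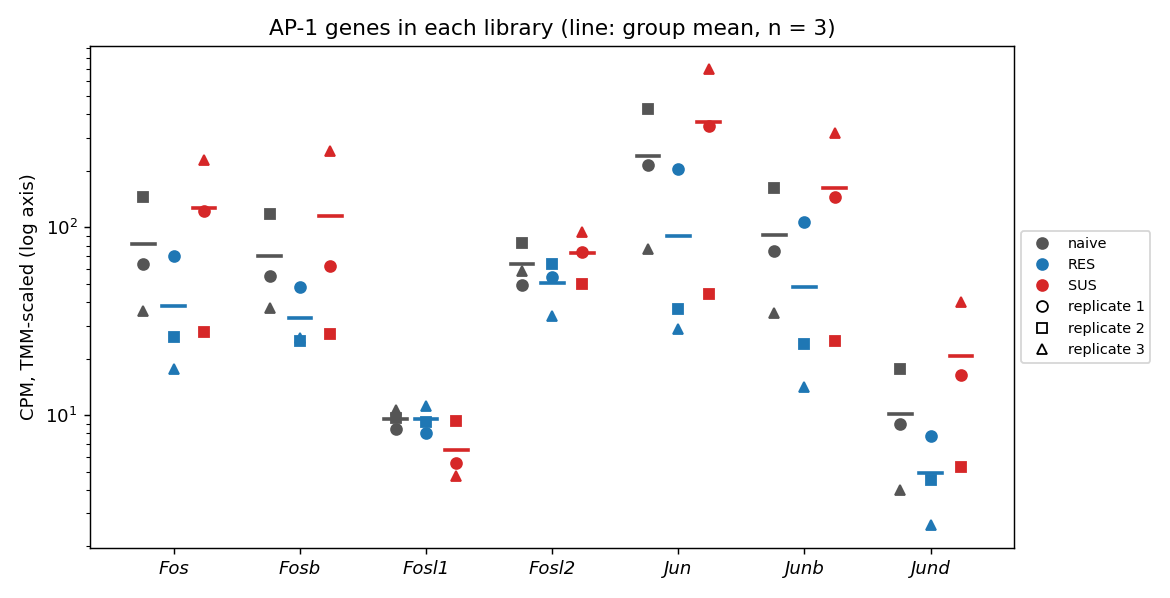
CPM of each AP-1 gene in every library (log axis), with colour for the group, shape for the replicate number and a line at each group mean (n = 3). Jun runs from 28.6 CPM in RES replicate 3 to 700.3 CPM in SUS replicate 3, Fosl1 stays between 4.72 and 11.2 CPM, and the groups overlap for every gene.

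Jun, Junb, Fos, Jund and Fosb varied more between libraries than most genes. The highest library was 24.5 times the lowest for Jun, 22.4 times for Junb, 15.5 times for Jund, 13.0 times for Fos and 10.4 times for Fosb, but 2.80 times for Fosl2 and 2.37 times for Fosl1. Without SUS replicate 3, the highest library was naive replicate 2 for the first 5 of these, and the folds were 14.98 for Jun, 11.5 for Junb, 6.74 for Jund, 8.23 for Fos and 4.77 for Fosb. The SD of log2 CPM over the 9 libraries was 1.69 for Jun, 1.51 for Junb, 1.26 for Fos, 1.21 for Jund and 1.12 for Fosb. Of 14443 genes with at least 10 CPM on average, whose median SD was 0.32, 99.8% had a smaller SD than Jun, 99.5% than Junb, 99.0% than Fos, 98.9% than Jund and 98.5% than Fosb. Fosl2, with an SD of 0.44, was above 74.6% of them. Over the 8 libraries without SUS replicate 3 the SD was 1.54 for Jun, 1.33 for Junb, 1.10 for Fos, 0.94 for Jund and 0.78 for Fosb, and 99.7%, 99.4%, 98.8%, 97.9% and 96.4% of the genes had a smaller one. Most of this spread lay within groups: with group means removed, the SD was 1.65 for Jun and 1.23 for Fos.

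The make-up of the family also differed between libraries. Of the 7 genes' summed counts per kb, Jun held 44.8%, 43.5% and 32.3% in the naive libraries, 39.5%, 22.8% and 24.1% in the RES libraries and 42.9%, 25.9% and 41.2% in the SUS libraries. The 4 lowest Jun shares were in naive replicate 3, RES replicates 2 and 3 and SUS replicate 2, the 4 libraries with the lowest Jun CPM, and since Jun is the largest part of the sum these measures are not independent. Fos, by contrast, held 18.0% to 21.9% in all 9 libraries. Junb held 16.5% to 28.5%, and Fosl2 and Fosl1 held larger shares in the low libraries (1.83% to 12.9% and 0.436% to 14.8% over all 9). The Jun family's counts per kb were 2.32, 2.30 and 1.28 times those of the Fos family in the naive libraries, 2.42, 0.947 and 0.812 times in the RES libraries and 2.52, 1.08 and 2.54 times in the SUS libraries. The groups overlapped on this ratio. Fosb counts were 0.511 (SUS replicate 1) to 1.46 times (RES replicate 3) the Fos counts, with no group holding only high or only low ratios.

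**Figure D3:**
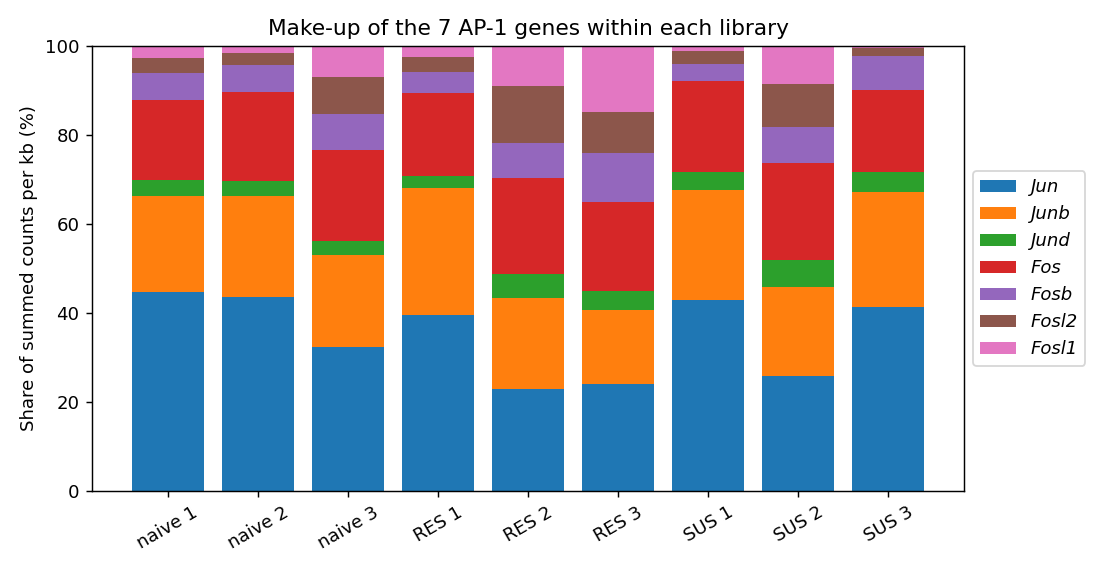
Share of each AP-1 gene in the family's summed counts per exonic kb (percent, stacked to 100), a bar for each library. The Fos share stays between 18.0% and 21.9%, while the Jun share runs from 22.8% in RES replicate 2 to 44.8% in naive replicate 1.

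RES was compared with naive to ask whether the family differed between animals of this cocaine group and drug-naive animals. Mean levels were lower in RES for all 7 genes, and none passed the test. Jun averaged 90.1 ± 99.4 CPM (SD, n = 3) in RES and 239.6 ± 178 CPM in naive (log2 fold change -1.41, SE 0.883). Fos averaged 38.1 ± 28.6 against 81.2 ± 56.5 CPM (log2 fold change -1.08, SE 0.677), and Fosb 32.9 ± 13.4 against 70.1 ± 42.4 CPM (-1.08, SE 0.645). The naive SDs were as large as these differences, and the RES SDs were smaller than them. Junb (-0.91, SE 0.809) and Jund (-0.96, SE 0.660) had similar log2 fold changes, Fosl2 was at -0.33 (SE 0.344) and Fosl1 at -0.01 (SE 0.277). Of the 7 genes, 0 were called at an adjusted p under 0.05 by edgeR, as were 0% of the 39210 genes tested. In 0 of the 7 were all RES libraries above or all below the naive libraries, which was so for 3.31% and 2.82% of all genes. At an unadjusted p under 0.05 edgeR likewise had 0 of the 7 and 0.921% of all genes, and DESeq2 and limma-voom called 0 genes at the adjusted threshold. The family's median log2 fold change was -0.96, beside -0.02 over all genes, 52.6% of which were below 0. Fosl1 was above 0 with the low-count filter or the mitochondrial genes left out, and without naive replicate 2 the log2 fold changes were -0.69 for Jun, -0.38 for Fos, -0.48 for Fosb, -0.18 for Junb, -0.38 for Jund and -0.09 for Fosl2. Without RES replicate 1 they were -2.86 for Jun, -2.24 for Junb, -1.88 for Fos, -1.45 for Fosb and -1.44 for Jund. In that setting 3 of the 7 had an unadjusted p under 0.05 by edgeR, beside 1.99% of all genes.

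SUS was compared with naive in the same model and with the same naive libraries. The means of 6 genes were higher in SUS and that of Fosl1 was lower, and none of the 7 passed the test, beside 0% of all genes by edgeR. Jun averaged 365 ± 328 CPM in SUS, a log2 fold change of 0.61 (SE 0.868). Junb averaged 163 ± 147 CPM against 90.8 ± 65.5 CPM in naive (0.85, SE 0.804), and Jund 20.6 ± 17.9 against 10.1 ± 6.86 CPM (1.12, SE 0.599). Each SD in SUS was close to its mean, with replicate 2 low and replicate 3 high. Fos (0.65, SE 0.667), Fosb (0.73, SE 0.636) and Fosl2 (0.20, SE 0.342) were on the same side, and Fosl1 averaged 6.52 ± 2.45 against 9.57 ± 1.12 CPM (-0.55, SE 0.276). At an unadjusted p under 0.05 by edgeR there were 0 of the 7 genes and 3.12% of all genes. Each of the 7 had overlapping groups, whereas 3.85% of all genes had every SUS library above the naive libraries and 4.15% every SUS library below. The median log2 fold change was 0.65 for the 7 genes and 0.02 for all genes, 52.2% of which were above 0. The direction rested on SUS replicate 3: without it the log2 fold change was -0.10 for Fos, -0.64 for Fosb, -0.03 for Fosl2, -0.28 for Jun, -0.09 for Junb and 0.22 for Jund.

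SUS was compared with RES, the cocaine groups, to ask whether the family differed between animals that were separated by their behaviour. The largest differences of the family were here, with 6 genes higher in SUS, and again none passed after adjustment, beside 0% of all genes by edgeR. Jund had the smallest unadjusted p (0.00496 by edgeR, rank 101 of 39210 genes), with 20.6 ± 17.9 CPM in SUS and 4.94 ± 2.58 CPM in RES, a log2 fold change of 2.08 (SE 0.632). Its RES values were near background, at 44, 21 and 20 counts in replicates 1, 2 and 3. By full exonic length they averaged 1.45 times background (0.680 to 2.09). Jun had 2.02 (SE 0.898), Fosb 1.81 (SE 0.654), Junb 1.75 (SE 0.823) and Fos 1.73 (SE 0.685) on the log2 scale. These 5 genes had an unadjusted p under 0.05 by edgeR, against 5.68% of all genes, and an adjusted p of 0.870 by edgeR. They rose and fell together over the 9 libraries (Pearson's r of log2 CPM 0.921 to 0.993 among them), so they are not 5 separate results. Fosl2 was at 0.53 (SE 0.344) and Fosl1 at -0.55 (SE 0.277). No gene of the family separated the groups, since SUS replicate 2 lay below RES replicate 1 for every gene but Fosl1, and for Fosl1 SUS replicate 2 lay above RES replicate 2. Of all genes, 3.41% had all SUS libraries above the RES libraries and 4.22% all below. The median of the 7 log2 fold changes was 1.75, beside 0.01 over all genes, 51.2% of which were above 0. The count of 5 changed with single libraries left out, and brackets give the share of all genes at an unadjusted p under 0.05 by edgeR. It was 0 without SUS replicate 3 (2.91%) and 1 without RES replicate 2 (4.05%) or RES replicate 3 (2.79%). It was 3 without SUS replicate 1 (5.43%), and 6 without RES replicate 1 (6.38%) or SUS replicate 2 (11.6%). Without SUS replicate 3 the log2 fold changes were 1.16 for Jund, 1.12 for Jun, 0.98 for Fos, 0.82 for Junb and 0.44 for Fosb.

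All 6 cocaine libraries were also compared with the 3 naive libraries, to ask about cocaine whatever the behavioural group. Log2 fold changes were near 0 for most of the family: 0.03 for Fos (SE 0.684), 0.09 for Fosb (SE 0.672), -0.07 for Jun (SE 0.854) and 0.22 for Junb (SE 0.792). Jund was at 0.46 (SE 0.702), Fosl2 at -0.04 (SE 0.307) and Fosl1 at -0.27 (SE 0.259). Of the 7 genes 0 were called, beside 0% of all genes by edgeR, and 0 had an unadjusted p under 0.05, beside 1.38% of all genes. On sign, 4 of the 7 and 51.4% of all genes were above 0. Groups overlapped for all 7, while 0.617% of all genes had every cocaine library above the naive libraries and 0.553% every one below. With SEs of this size for Fos, Fosb, Jun and Junb, a change of 2-fold was not detectable in either direction. Without SUS replicate 3, 0 of the 7 log2 fold changes were above 0. They were then -0.60 for Fos, -0.88 for Fosb, -0.84 for Jun, -0.51 for Junb and -0.32 for Jund. In that setting 1 of the 7, Fosb, had an unadjusted p under 0.05 by edgeR, beside 1.74% of all genes. Without naive replicate 2, 6 of the 7 were above 0. The 4 comparisons share libraries, so their values are not independent of each other.

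**Figure D4:**
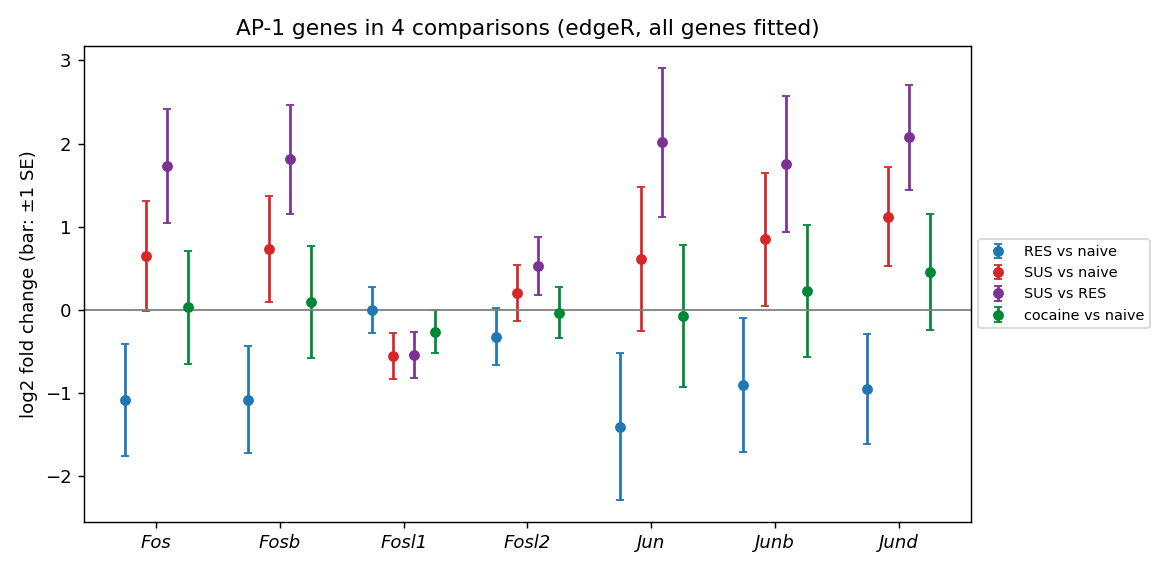
Log2 fold change of each AP-1 gene in the 4 comparisons from the edgeR fits of all genes, with bars of 1 SE on each side. SUS against RES is highest for Jund (2.08) and Jun (2.02), RES against naive lies at or below 0 for all 7 genes, and none passed after adjustment.

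Markers of microglia, the brain's resident macrophages, had the same high and low libraries as Jun, Junb, Fos, Jund and Fosb. This did not hold for Fosl2, at 63.6 CPM in RES replicate 2 and 49.6 CPM in naive replicate 1. Nor did it hold for Fosl1, which was lowest in SUS replicate 3 (4.72 CPM). The median of 18 microglia markers was 17.5, 34.7 and 3.70 times background in the naive libraries, 15.9, 1.98 and 2.15 times in the RES libraries and 36.2, 3.26 and 52.2 times in the SUS libraries. The 4 libraries with the lowest medians were the 4 with the lowest Jun, and none of the 18 markers was at 0 in any library. Their summed level was 405 to 4125 CPM in naive, 186 to 2269 CPM in RES and 345 to 7059 CPM in SUS. All 18 were lower in RES than in naive, higher in SUS than in naive and higher in SUS than in RES. In SUS against RES their median log2 fold change was 2.09. There 11 had an unadjusted p under 0.05 by edgeR, beside 5.68% of all genes. Oligodendrocyte lineage markers (10 genes) had a median of 1.00 in SUS against RES, with 4 at an unadjusted p under 0.05, and border and blood macrophage markers (10 genes) 0.51, also with 4. Without SUS replicate 3, the SUS against RES medians were 1.49955 for the microglia markers, 1.15 for the oligodendrocyte lineage and 0.32 for the macrophage markers. At an unadjusted p under 0.05 there were 1 of 18, 5 and 3 of these genes, beside 2.91% of all genes by edgeR. In that setting, 17 of the 18 microglia markers were above naive in SUS (median 0.30). None was called by edgeR after adjustment. The part of these cells in the AP-1 values was not tested. Heat shock genes and the mitochondrial share of counts, both given below, were lowest in the same 4 libraries as Jun.

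Of the activity genes outside the family, Egr1 had the same high and low libraries as Jun, and Npas4 and Arc peaked in a library where Jun was low. Npas4, a neuron-specific immediate early gene, was at 2.81, 5.28 and 7.55 times background in the naive libraries, 3.40, 12.3 and 2.81 times in the RES libraries and 2.29, 6.18 and 1.97 times in the SUS libraries. Its highest library was RES replicate 2, where Jun was 36.9 CPM, and SUS replicate 3 was its lowest. Arc, whose product acts at synapses, stood at 3.70, 9.57 and 5.81 times background in the naive libraries, 4.49, 13.6 and 1.87 times in RES and 4.95, 8.27 and 3.68 times in SUS. Arc was highest in RES replicate 2, but its next highest library was naive replicate 2 and its lowest RES replicate 3, which were also high and low in Jun. Egr1, an immediate early gene of neurons and other cells, was at 24.9, 49.2 and 8.12 times in naive, 21.5, 6.35 and 2.34 times in RES and 52.3, 7.81 and 75.1 times in SUS, with the same 3 highest libraries as Fos. Ppp1r1b, a marker of medium spiny neurons, was at 4.12 to 20.4 times background and lowest in SUS replicate 3 (4.12), where Fos and Jun were highest, and RES replicate 3 (4.81), where they were lowest. These 4 genes were picked for display with their values known.

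**Figure D5:**
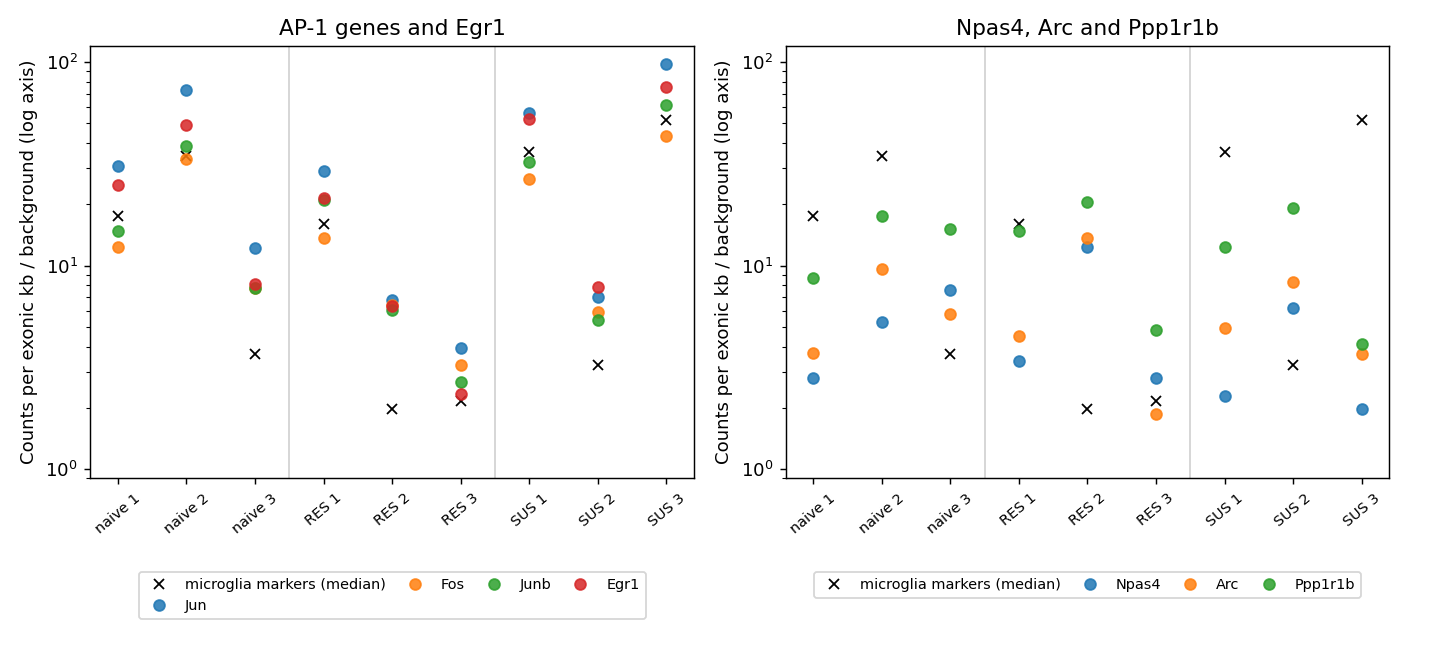
Counts per exonic kb over background (log axis) in each of the 9 libraries, separated by group, with crosses for the median of 18 microglia markers in both panels. Jun, Fos, Junb and Egr1 (left) are high and low in the same libraries as the microglia markers, while Npas4 and Arc (right) peak in RES replicate 2, where the microglia median is 1.98.

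Among other genes of the pathway, the bZIP partners that can pair with Fos or Jun proteins had the same directions with smaller values. Of 14 partners, 13 were lower in RES than in naive (median log2 fold change -0.42), 10 of them exceeded naive in SUS (median 0.25), and 13 were higher in SUS than in RES (median 0.42). In SUS against RES, 6 of the 14 had an unadjusted p under 0.05 by edgeR, beside 5.68% of all genes. None of the 14 was called by edgeR in any comparison. When SUS replicate 3 was left out, 5 of the 14 exceeded naive in SUS (median -0.07). In SUS against RES the median was then 0.26, with 0 at an unadjusted p under 0.05, beside 2.91% of all genes by edgeR. Maf averaged 82.6 ± 63.7 CPM in SUS and 23.5 ± 16.5 CPM in RES (log2 fold change 1.81, SE 0.649). Atf3, a stress-induced partner of Jun, averaged 35.9 ± 34.4 CPM in RES and 87.9 ± 66.8 CPM in naive (-1.28, SE 0.748).

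Upstream of the family, the factors that act on the Fos and Jun promoters and the MAP kinases had smaller differences than the family. Of 14 promoter factors, 11 were lower in RES than in naive (median -0.24) and 9 higher in SUS than in naive (0.14). In SUS against RES 10 were higher (0.37), and 4 had an unadjusted p under 0.05, beside 5.68% of all genes by edgeR. Elk4, a partner of serum response factor, averaged 36.4 ± 13.9 CPM in SUS and 18.7 ± 5.35 CPM in RES (log2 fold change 0.96, SE 0.312). Of 18 MAP kinase genes, 16 were higher in SUS than in RES, with a median of 0.25 and 2 at an unadjusted p under 0.05. These were Rps6ka1, which encodes the kinase RSK1 (62.9 ± 40.9 against 20.9 ± 9.31 CPM; 1.58, SE 0.534), and Mapk3, which encodes ERK1 (34.1 ± 14.0 against 18.0 ± 5.39 CPM; 0.93, SE 0.334). Mapk8, which encodes the Jun kinase JNK1, had the list's only unadjusted p under 0.05 in SUS against naive (39.8 ± 1.91 against 26.9 ± 5.36 CPM; 0.55, SE 0.252). That is 1 of 18, beside 3.12% of all genes. Over all libraries Mapk8 averaged 1.41 and Elk4 2.01 times background, below the 3 times background used for the cholinergic markers. None of the promoter factors or MAP kinase genes was called by edgeR in any comparison. Without SUS replicate 3 the SUS against RES medians were 0.35 for the promoter factors and 0.26 for the kinases. At an unadjusted p under 0.05 by edgeR there were then 1 and 0 of them, beside 2.91% of all genes.

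Genes that limit AP-1 signalling had larger values than its kinases. Of 13 such genes, 12 were higher in SUS than in RES (median log2 fold change 0.85). There 5 had an unadjusted p under 0.05 by edgeR, beside 5.68% of all genes. In SUS against naive 12 were higher (0.45), and in RES against naive 9 were lower (-0.40). Dusp6, a phosphatase of ERK, averaged 62.7 ± 47.5 CPM in SUS and 19.7 ± 9.72 CPM in RES (1.68, SE 0.585), and Zfp36l1, which promotes mRNA decay, 42.7 ± 34.5 against 13.0 ± 8.54 CPM (1.73, SE 0.681). Of 18 immediate early genes outside the family, 15 were higher in SUS than in RES (median 1.14; 6 at an unadjusted p under 0.05), 14 higher in SUS than in naive (0.34) and 16 lower in RES than in naive (-0.57). Egr2 averaged 30.6 ± 20.1 CPM in SUS and 11.8 ± 3.24 CPM in RES (1.36, SE 0.457). Of 20 genes reported as targets of AP-1 or FosB, 14 were higher in SUS than in RES with a median of 0.20, and 1, Ccnd1 (cyclin D1), had an unadjusted p under 0.05, a share near the 5.68% of all genes (17.4 ± 6.27 against 10.6 ± 1.66 CPM; 0.71, SE 0.303). Over all libraries Ccnd1 averaged only 1.52 times background. The targets' medians were -0.16 in RES against naive and 0.03 in SUS against naive. None of these 3 lists held a called gene by edgeR. Leaving out SUS replicate 3, the SUS against RES medians were 0.40 for the limiting genes, 0.53 for the immediate early genes and 0.24 for the targets. In the same order, 0, 1 and 0 genes had an unadjusted p under 0.05 by edgeR, beside 2.91% of all genes. The SUS against naive medians were then 0.11, 0.00 and 0.12.

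The likeness of other genes to each member was described by Pearson's r of log2 CPM over the 9 libraries, among 12738 named genes with at least 10 CPM on average. These libraries share the sort and differ in depth and in the markers above, and no test was made. For Fos the closest genes were Rps27 (r = 0.998), Rnf19b (0.997), Rpl5 (0.996), Rpl21 (0.995) and Rps24 (0.995), 4 of which encode ribosomal proteins. Junb was at place 9 in likeness to Fos (r = 0.993) and Jun was at place 36 (0.988). Fosb, at place 618 (0.942), and Fosl2 (0.838) were farther from Fos. The 5 genes closest to Jun were Rps3 (0.997), Ctsd, H2-K1, Ier5 and Rps27a, and those closest to Junb were Rpl4 (0.998), Rpl5, Rpl21, Ier5 and Rpl17. For Fosb they were Fuca2 (0.988), Epha1, Rbbp8, Ninj1 and Trim47, for Fosl2 Dyrk1a (0.988), Prr14, Pias1, Ddb1 and Hsd17b4, and for Jund Gxylt1 (0.989), Cox4i1, Lmo2, Ptprj and Arrb2. An r of at least 0.9 with Fos was common, at 1082 genes or 8.49% of those compared, so a high value sets no gene apart. Over the 8 libraries without SUS replicate 3, r with Fos was 0.992 to 0.997 for its 5 closest genes, 0.990 for Junb, 0.987 for Jun, 0.946 for Fosb and 0.761 for Fosl2. Fosl1, at 8.53 CPM on average, was under the level used for this description.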

How the data were processed

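The deposited table holds raw counts of reads per Ensembl gene in 9 libraries, whole numbers that the authors left unscaled. Per the submitters' processing notes, the tools were STAR 2.5.2b, HTSeq, FastQC, DESeq2 and DESeq, with the build GRCm38. Strandedness and annotation release are not given in the sources used here. Symbols, positions and exonic lengths came from GENCODE M21 (52489 of 52636 IDs), promoters from RefSeq. Genes were filtered with filterByExpr, scaled by the trimmed mean of M values (factors 0.743 to 1.58) and tested by quasi-likelihood F tests in edgeR 4.0.16 (R 4.3.3) in a model of 3 groups (cocaine against naive in a model of 2), with Benjamini-Hochberg adjustment over 39210 genes at 0.05. DESeq2 1.42.0 and voom (limma 3.58.1) were alternatives. Scripts were tested on simulated data. Mitochondrial genes took 9.09% to 28.7% of counts. This share was lowest in RES replicate 3 (9.09%), then RES replicate 2 (11.5%), SUS replicate 2 (15.9%) and naive replicate 3 (17.1%), the libraries with the lowest Jun. SUS replicate 3, where Jun was highest, had 17.7%, and the largest share was that of RES replicate 1 (28.7%). Whether the AP-1 values depend on this share was not tested.

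The members, lists and marker sets were chosen with earlier results of these data known. All 7 members are named, with up to 2 genes per other list and comparison (smallest p), and the 5 genes most like each member of at least 10 CPM. Egr1, Npas4, Arc and Ppp1r1b were added after their values were seen, as were the spreads, list medians and correlations without SUS replicate 3. Log2 CPM used a prior count of 2, and ratios of members 0.5 added counts. Groups follow the sample titles. Same-numbered libraries of different groups had correlations of deviations from -0.17 to 0.17, so the numbers were not taken to pair them.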

Additional observations from a re-analysis of the deposited data

Results flagged for a closer look

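Within the 6 cocaine libraries, Fosb in SUS replicate 3 lay far from the others: its gap to the nearest library was 0.837 of the whole range of CPM, above Dixon's critical value for 6 samples. Fosb was 257 CPM there and 62.6 CPM in the next library, SUS replicate 1. Jund had the same library at 40.3 CPM, with 16.4 CPM in SUS replicate 1, and a gap of 0.635 of the range. Chance marks about 1 group in 20 by this test. Both values come from the library that stood apart from the other 8 over all genes.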

How the results depend on the processing

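The number of genes called by edgeR was 0 in all 4 comparisons under every setting tried, with 0 to 0 when single libraries were left out. The number of pairs of AP-1 genes that differ in level was 15, 15 to 16 with single libraries left out, 19 with the longest transcript as length and, chosen after seeing the data, 17 with unshared bases. The count of members at an unadjusted p under 0.05 was also added after seeing the data, and brackets give the share of all genes. In RES against naive it was 0 (0.921%), 2 with only the groups compared (1.87%) and 0 to 3 with single libraries left out (0.593% to 1.99%). In SUS against naive it was 0 (3.12%), 2 with voom (8.22%) and 0 to 3 with single libraries left out (1.81% to 8.84%). In SUS against RES it was 5 (5.68%), 3 with DESeq2 (4.81%), 2 with voom (8.59%) and 3 with the replicate block (5.09%). Single libraries left out gave 0 to 6 there (2.79% to 11.6%). In cocaine against naive it was 0 (1.38%), and 0 to 1 with single libraries left out (0.967% to 2.22%). The cause of these shifts was not tested.

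Some log2 fold changes crossed 0. In RES against naive, Fosl1 was 0.0021 with no filter on low counts, 0.011 without mitochondrial genes and 0.010 with only the groups compared (-0.15 to 0.12 with single libraries left out). In SUS against naive, Fosb was -0.052 with voom. With single libraries left out, Fos ran from -0.10 to 1.34, Fosb from -0.64 to 1.31, Fosl2 from -0.034 to 0.42, Jun from -0.28 to 1.32 and Junb from -0.087 to 1.56, the lowest always without SUS replicate 3 and the highest without naive replicate 2. In cocaine against naive, Fos, Fosb and Junb were -0.45, -0.63 and -0.38 with voom and -0.29, -0.37 and -0.29 with the replicate block. There, single libraries moved Fos from -0.60 to 0.73, Fosb from -0.88 to 0.68 and Fosl2 from -0.20 to 0.19. Jun moved from -0.84 to 0.64, Junb from -0.51 to 0.94 and Jund from -0.32 to 1.02. The lowest of each was again without SUS replicate 3 and the highest without naive replicate 2. The replicate block gave 0 called genes in each comparison. With 3 libraries a group, an exact permutation test of a single value cannot go below p = 0.10, and 20 to 333 counts of Jund per library limit its precision.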

Other observations

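Other marker lists had smaller or mixed values beside the AP-1 genes, and 0 of their genes were called by edgeR. In SUS against RES, 10 heat shock genes, which respond to protein stress, were all higher, with a median log2 fold change of 0.90. None had an unadjusted p under 0.05 by edgeR, beside 5.68% of all genes. With that comparison made without SUS replicate 3, 9 of the 10 were higher, with a median of 0.36, and all 10 were lower in SUS than in naive (-0.25). In RES against naive all 10 were lower, with a median of -0.68, and in SUS against naive 6 were higher (0.27). By library, their summed level was lowest in RES replicate 3 (331 CPM), then SUS replicate 2 (737), RES replicate 2 (818) and naive replicate 3 (894). Jun was also lowest in these libraries. The highest sums were those of SUS replicate 3 (2752 CPM), naive replicate 2 (2291) and SUS replicate 1 (1671), the highest libraries of Fos. Whether the AP-1 values share a source with the heat shock genes was not tested. Hspa5, an endoplasmic reticulum chaperone, averaged 298 ± 255 CPM in SUS and 103 ± 80.4 CPM in RES (1.54, SE 0.725). The 12 medium spiny neuron markers had medians of -0.03 in RES against naive, -0.16 in SUS against naive and -0.10 in SUS against RES. The 10 astrocyte markers had medians of -0.04, -0.29 and -0.28 in the same order. The 10 endothelial and mural markers had medians of -0.18, 0.18 and 0.29, and the 8 cholinergic markers 0.12, 0.00 and -0.13. Without SUS replicate 3, the SUS against naive and SUS against RES medians were 0.14 and 0.16 for medium spiny neuron, -0.26 and -0.25 for astrocyte, -0.01 and 0.04 for endothelial and mural and 0.02 and -0.04 for cholinergic markers.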
